A study of Mus musculus with 45 samples.

Results

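The effect of losing S1PR4 was compared between T follicular helper (Tfh) cells and CD4+ T cells without the Tfh surface markers (non-Tfh cells), both sorted from draining lymph nodes. Tfh and non-Tfh samples that carry the same number were paired within each genotype, the non-Tfh value was taken from the Tfh value on the log2 scale, and the 6 differences from S1PR4-/- mice were set against the 6 from wild-type (WT) mice. The comparison used 24 of the 45 samples of the series, 6 in each of the 4 groups, or 12 pairs. A negative value means that a gene stood lower in Tfh relative to non-Tfh cells in S1PR4-/- mice than it did in WT mice. It can come from a lower level in Tfh cells, a higher level in non-Tfh cells, or both, so the level in each population is given beside it.

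S1PR4-/- mice (B6.129P2-S1pr4tm1Dgen/J, backcrossed at least 10 times to C57/BL6) and their WT littermates of both sexes, aged 8 to 12 weeks, received 50 µg of ovalbumin (OVA) and 5 µg of LPS in 20 µl of an emulsion with incomplete Freund's adjuvant (IFA) in the hind footpad. On day 6, cells of the draining popliteal lymph nodes were sorted as Tfh (TCRβ+ CD4+ PD1+ CXCR5+) or non-Tfh (TCRβ+ CD4+ PD1- CXCR5-). All 4 groups were immunized in this way, and no group went without immunization. The deletion is carried by every cell of the mouse, so an effect inside T cells and an effect of their surroundings cannot be told apart. The study's methods give 6 WT and 6 S1PR4-/- mice for the sorted cells, as many as the samples of a group, but neither the methods nor the labels tie a sample number to a mouse, so that equal numbers need not be 1 mouse.

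Tfh cells help B cells in germinal centers, and their program is held by the repressor BCL6, while most non-Tfh CD4+ cells of a lymph node are naive or early effector cells. S1PR4 is a receptor for the lipid sphingosine-1-phosphate and is found mainly on blood and immune cells. NF-κB, a family of transcription factors to which several genes below belong, rests in the cytoplasm bound to inhibitors until a signal from the T cell receptor, a cytokine or a member of the TNF receptor family frees it. Several of its inhibitors, among them IκBα, are themselves transcribed by NF-κB, as are the subunits RELB and p100.

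Sequencing depth was similar over the 24 samples, with totals from 29280430 to 45548215 expected counts (median 35592460). S1pr4, the deleted gene, had between 1811 and 3170 expected counts in WT Tfh samples and between 4352 and 6305 in WT non-Tfh samples, against 10 to 40 and 18 to 32 in the S1PR4-/- samples. Levels are given in CPM, counts scaled to the TMM-normalized size of each library. The mean log2 CPM of 23 Tfh genes, Bcl6, Cxcr5 and Pdcd1 among them, ran from 7.26 to 7.78 over all Tfh samples and from 4.23 to 5.25 over all non-Tfh samples. By Xist and Ddx3y counts, 1 WT pair and 4 S1PR4-/- pairs were male, and 5 WT and 2 S1PR4-/- pairs were female. RNA of other cells also differed between genotypes: the mean log2 CPM of plasma cell markers (9 of 10 tested) ran from 4.23 to 7.01 in WT Tfh samples and from -0.75 to 2.73 in S1PR4-/- Tfh samples. In non-Tfh samples this score ran from 0.32 to 3.47 in WT and from -1.22 to 0.71 in S1PR4-/- mice.

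Of 14401 genes tested, 41 (0.285%) had a knockout effect that differed between the populations at an adjusted p under 0.05 in edgeR's quasi-likelihood test with the pair as a block. In 37 of them (0.257%) the Tfh minus non-Tfh difference was lower in S1PR4-/- mice, and in 4 (0.0278%) it was higher. An unadjusted p under 0.05 was reached by 1654 genes, 1015 of them lower. Without the pair block, edgeR called 2 genes, Relb and Nfkbiz, and 1325 at an unadjusted p under 0.05. The block thus decided most of the calls. Single pairs did too: the count was 0 without WT pair 3, 1 without WT pair 2 or WT pair 4, 3 without S1PR4-/- pair 3, 7 without S1PR4-/- pair 6, 8 without WT pair 5, 16 without S1PR4-/- pair 5 and 26 without S1PR4-/- pair 4. Leaving out any of the other 4 pairs gave 31 to 47 calls. The 41 genes kept their sign in each of these fits, a direction that follows in part from their having been called on the same pairs.

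The 12 pair differences themselves separated by genotype in 33 of the 41 genes, that is, the 6 S1PR4-/- differences did not overlap the 6 WT ones. Over all genes tested this was so in 165 (1.15%). When genotype labels were permuted over the 12 pairs (exact test, two-sided), these 33 genes had p = 0.00216, the smallest value that 6 pairs against 6 allow. It was at most 0.00649 in the other 8. The genes had been called on these same differences, and separation by itself gives the smallest p, so these values describe the calls and are no separate support for them.

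**Figure D1:**
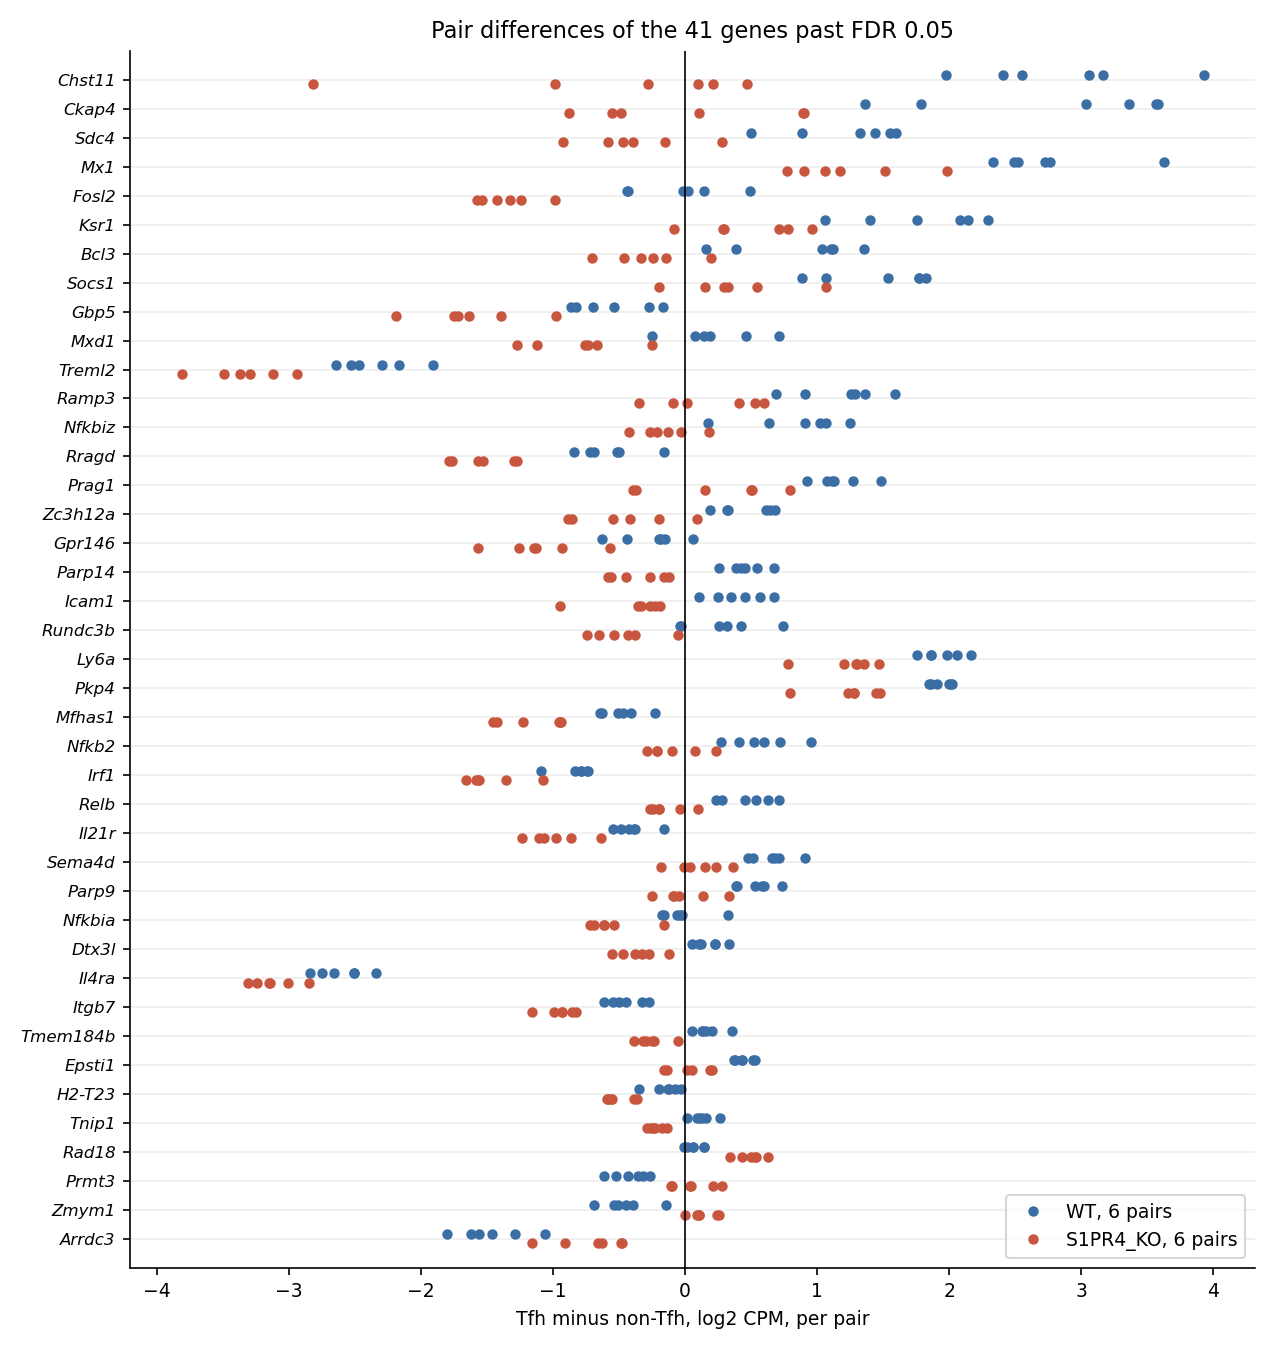
Tfh minus non-Tfh difference in log2 CPM (x axis) for each of the 41 genes past an adjusted p of 0.05 (y axis), with WT pairs in blue and S1PR4-/- pairs in red, 6 of each. In 33 genes the colors do not overlap; the upper 37 genes have the red points to the left, and the lower 4 to the right.

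The 37 genes were lower in Tfh cells and higher in non-Tfh cells of S1PR4-/- mice, by point estimate, without exception, and the 4 others moved the opposite way in both populations. Calling genes on the difference between the effects favors opposite signs, so this pattern follows in part from the selection. The share of opposite signs over all genes tested was not counted. Most of these single effects did not pass a test of their own. Compared directly between genotypes, without pairs, 296 genes (2.06%) passed in Tfh cells and 69 (0.479%) in non-Tfh cells. Among the 37, 11 passed in Tfh cells, all lower, 5 passed in non-Tfh cells, all higher, none passed in both and 21 passed in neither. These tests use the same samples as the paired test and are not independent of it. By point estimate, 15 of the 37 were higher in Tfh than in non-Tfh cells in WT mice and lower in S1PR4-/- mice. Another 10 were higher in Tfh cells in both genotypes, and 12 were lower in both. In only 5 of the 37 were all 6 WT pairs positive and all 6 S1PR4-/- pairs negative. Parp9, counted among the 15, was about level in S1PR4-/- mice, at -0.0004 (SE 0.07). The shares of these patterns over all genes tested were not counted.

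**Figure D2:**
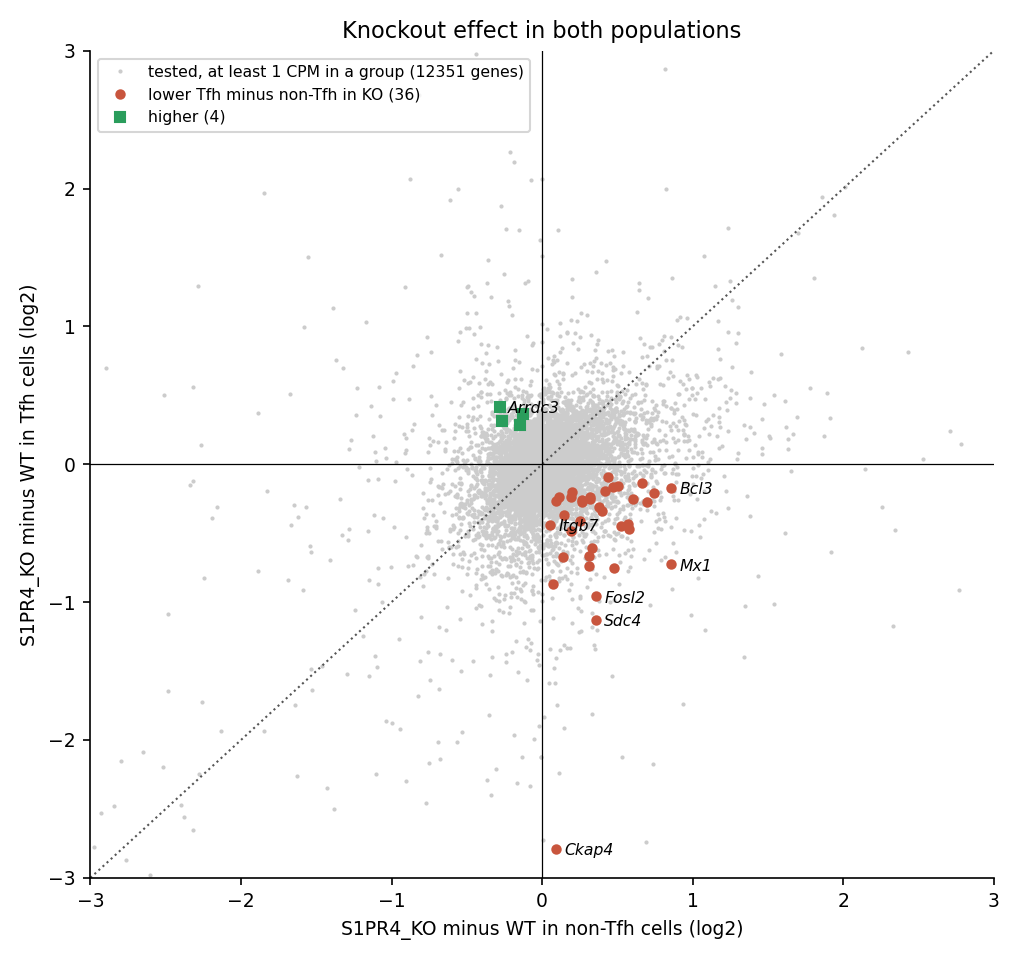
Knockout effect (S1PR4-/- minus WT, log2) in non-Tfh cells (x axis) against that in Tfh cells (y axis) for 12351 genes with at least 1 CPM in a group, of which 55 lie outside the axes. The 36 genes lower in the paired comparison (red) lie in the lower right quadrant and the 4 higher genes (green) in the upper left, away from the dotted line of equal effects; Chst11 is under 1 CPM and is not drawn.

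Both genes of the noncanonical NF-κB dimer were among the calls. Of the 5 NF-κB subunit genes tested, Relb and Nfkb2 passed, and the list median was -0.34. Over all genes tested, 0.257% passed with a lower value, and the median was -0.02. This list and those below were written with earlier results of these data known, so their counts describe the genes chosen. Relb and Nfkb2 were both higher in WT Tfh than in WT non-Tfh cells but not so in S1PR4-/- mice. Relb (ENSMUSG00000002983.17, chr7:19606217-19629438, minus strand, mm10) encodes the partner of p52. Its level ran from 87.7 to 115 (median 95.2) CPM in WT Tfh, from 63.1 to 79.9 (median 69.3) in WT non-Tfh, from 75.6 to 91.6 (median 85.7) in S1PR4-/- Tfh and from 85.5 to 102 (median 93.7) in S1PR4-/- non-Tfh samples. All 6 S1PR4-/- non-Tfh samples were above all 6 WT non-Tfh samples, while the genotypes overlapped in Tfh cells. The Tfh minus non-Tfh difference of Relb ran from 0.23 to 0.71 (median 0.49) in WT pairs and from -0.27 to 0.10 (median -0.20) in S1PR4-/- pairs. These ranges do not overlap. The difference between genotypes was -0.61 (SE 0.10, adjusted p = 0.0251) in log2, made up of -0.20 (adjusted p = 0.134) in Tfh cells and 0.42 (adjusted p = 0.00281) in non-Tfh cells. The adjusted p-values are from edgeR's quasi-likelihood test here and below, with n = 6 in each group.

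Nfkb2 (ENSMUSG00000025225.15, chr19:46304320-46312385, plus strand) encodes p100, the precursor of p52. It ran from 123 to 159 (median 141) CPM in WT Tfh and from 75.8 to 123 (median 94.6) in WT non-Tfh samples. In S1PR4-/- mice it ran from 112 to 134 (median 128) in Tfh and from 107 to 164 (median 134) in non-Tfh samples. The order of the populations was thus turned at the median, with a difference between genotypes of -0.66 (SE 0.12, adjusted p = 0.0309). Its pair differences ran from 0.27 to 0.95 (median 0.56) in WT pairs and from -0.29 to 0.24 (median -0.15) in S1PR4-/- pairs, so the order was not turned in every pair. Only the effect in non-Tfh cells passed its own test, at 0.50 (adjusted p = 0.0195). The remaining subunits did not pass: Rel was at -0.34 (adjusted p = 0.468), Rela at -0.14 (adjusted p = 0.475) and Nfkb1 at 0.04 (adjusted p = 0.959).

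Inhibitors and modulators of NF-κB gave calls as well. Of 14 genes listed as inhibitors, 4 passed, all lower, and 11 of the 14 had a negative value, with a median of -0.37. The 4 include Nfkbiz and Bcl3, nuclear relatives of IκBα described below, so the count is not of inhibitors alone. Over all genes tested the median was -0.02, 53.5% of values were negative and 0.257% passed with a lower value. Nfkbia (ENSMUSG00000021025.8, chr12:55489410-55492647, minus strand) encodes IκBα. It ran from 265 to 363 (median 303) CPM in WT Tfh, from 277 to 341 (median 307) in WT non-Tfh, from 211 to 318 (median 241) in S1PR4-/- Tfh and from 340.4 to 443 (median 362) in S1PR4-/- non-Tfh samples. Both populations were about level in WT mice, whereas Tfh samples lay below non-Tfh samples in all 6 S1PR4-/- pairs. The difference between genotypes was -0.53 (SE 0.10, adjusted p = 0.0499), close to the threshold, and the WT and S1PR4-/- pairs overlapped.

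Nfkbiz (ENSMUSG00000035356.17, chr16:55811375-55838899, minus strand) encodes IκBζ, a nuclear relative of IκBα that alters which target genes are transcribed. It was at 60.8 ± 14.0 CPM (mean ± SD, n = 6) in WT Tfh and 33.4 ± 5.36 in WT non-Tfh cells, but at 45.0 ± 4.58 and 49.7 ± 2.46 in S1PR4-/- mice. The S1PR4-/- non-Tfh samples, from 46 to 53.6, all lay above the WT non-Tfh samples, from 24.9 to 39.8. The difference between genotypes was -0.99 (SE 0.16, adjusted p = 0.0251), about as large as for Bcl3, another nuclear relative that binds p50 and p52 dimers. Bcl3 (ENSMUSG00000053175.17, chr7:19808462-19822770, minus strand) lies 179 kb from Relb on the same chromosome. It was at 194 ± 43.5 CPM in WT Tfh and 116 ± 60.2 in WT non-Tfh cells, and at 172 ± 71.3 and 211 ± 96.6 in S1PR4-/- mice. The samples of 1 group varied widely, and the effects within each population did not pass, while the paired difference was -1.14 (SE 0.20, adjusted p = 0.0299).

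Tnip1 (ENSMUSG00000020400.17, chr11:54910785-54962917, minus strand), which encodes a ubiquitin-binding partner of the NF-κB brake A20, moved little but evenly. It ran from 126 to 144 (median 132) CPM in WT Tfh and from 109 to 121 (median 114) in S1PR4-/- Tfh samples, which do not overlap, and from 110.0 to 129 (median 124) and from 120.4 to 144 (median 134) in the non-Tfh samples, which do. The paired difference was -0.35 (SE 0.06, adjusted p = 0.0267), with the effect in Tfh cells at -0.24 (adjusted p = 0.0143). The gene for A20 itself, Tnfaip3, stood at -0.46 (adjusted p = 0.0808) and did not pass, although its pairs did not overlap. Others short of the threshold were Tnip2 at -0.39 (adjusted p = 0.138), Nfkbie at -0.32 (adjusted p = 0.209) and Nfkbid at -0.42 (adjusted p = 0.25).

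**Figure D3:**
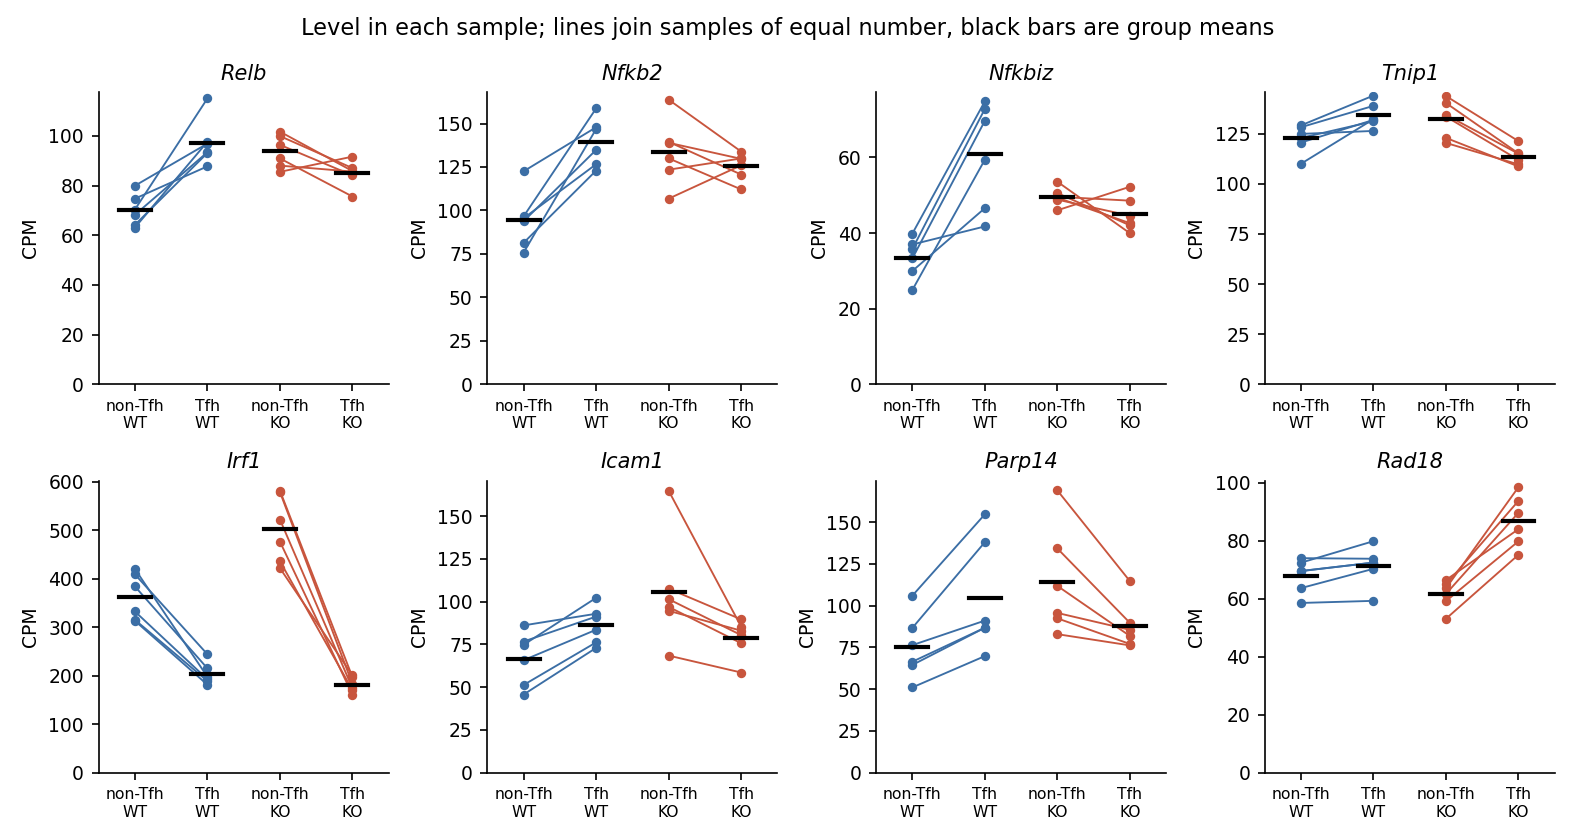
CPM (y axis, from 0) of 8 genes in each sample, with lines joining Tfh and non-Tfh samples of equal number and black bars at group means. By group mean, Relb, Nfkb2 and Nfkbiz rise from non-Tfh to Tfh in WT (blue) and lie level or fall in S1PR4-/- mice (red, KO), Irf1 falls in both and more steeply in S1PR4-/- mice, and Rad18 rises mainly in S1PR4-/- mice. Single S1PR4-/- pairs rise: pair 2 in Relb, pairs 4 and 5 in Nfkb2 and pair 3 in Nfkbiz.

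The kinases and adaptors upstream of NF-κB gave no call. Of 17 genes, 0 passed in edgeR, 3 were lower and 1 higher at an unadjusted p under 0.05, and the median was -0.08. Traf1, an adaptor of TNF receptors that NF-κB also transcribes, was at -0.28 (adjusted p = 0.138), and Map3k14, the kinase that starts p100 processing, was at -0.37 (adjusted p = 0.201). The 16 tested genes of the TNF receptor family and its ligands gave 0 calls in edgeR, with 8 lower and 0 higher at an unadjusted p under 0.05 and a median of -0.38. Of all 14401 genes tested, 1015 were lower and 639 higher at that p, and the median was -0.02. Tnfrsf25, a costimulatory receptor, came nearest, at -1.01 (adjusted p = 0.0591).

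Among 21 NF-κB target genes, 2 passed, both lower, 18 had a negative value, and the median was -0.38. For all genes tested, 0.257% passed with a lower value and 53.5% of values were negative. Irf1 (ENSMUSG00000018899.16, chr11:53770014-53778374, plus strand) encodes a transcription factor of interferon responses. It ran from 182 to 244 (median 195) CPM in WT Tfh and from 161 to 201 (median 179) in S1PR4-/- Tfh samples, and from 313 to 420.3 (median 358) and from 422 to 582 (median 499) in the corresponding non-Tfh samples. Every S1PR4-/- non-Tfh sample was above every WT one, and Irf1 was lower in Tfh than in non-Tfh cells in all 12 pairs. Between genotypes the pairs differed by -0.64 (SE 0.10, adjusted p = 0.0251), with 0.47 (adjusted p = 0.0211) in non-Tfh cells and -0.17 (adjusted p = 0.401) in Tfh cells. Icam1 (ENSMUSG00000037405.8, chr9:21015985-21028817, plus strand), the adhesion ligand of the integrin LFA-1, was higher in Tfh cells in all 6 WT pairs and lower in all 6 S1PR4-/- pairs. Its pair differences ran from 0.11 to 0.67 (median 0.40) and from -0.95 to -0.19 (median -0.30), and the paired difference was -0.79 (SE 0.13, adjusted p = 0.0263). Tnf and Lta, the genes of a pair of inflammatory cytokines, had paired differences of -0.68 (adjusted p = 0.122) and -0.48 (adjusted p = 0.13), which did not pass. In non-Tfh cells alone, Lta was higher in S1PR4-/- mice by 0.55 (adjusted p = 0.00403) and Tnf by 0.67 (adjusted p = 0.0364).

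**Figure D4:**
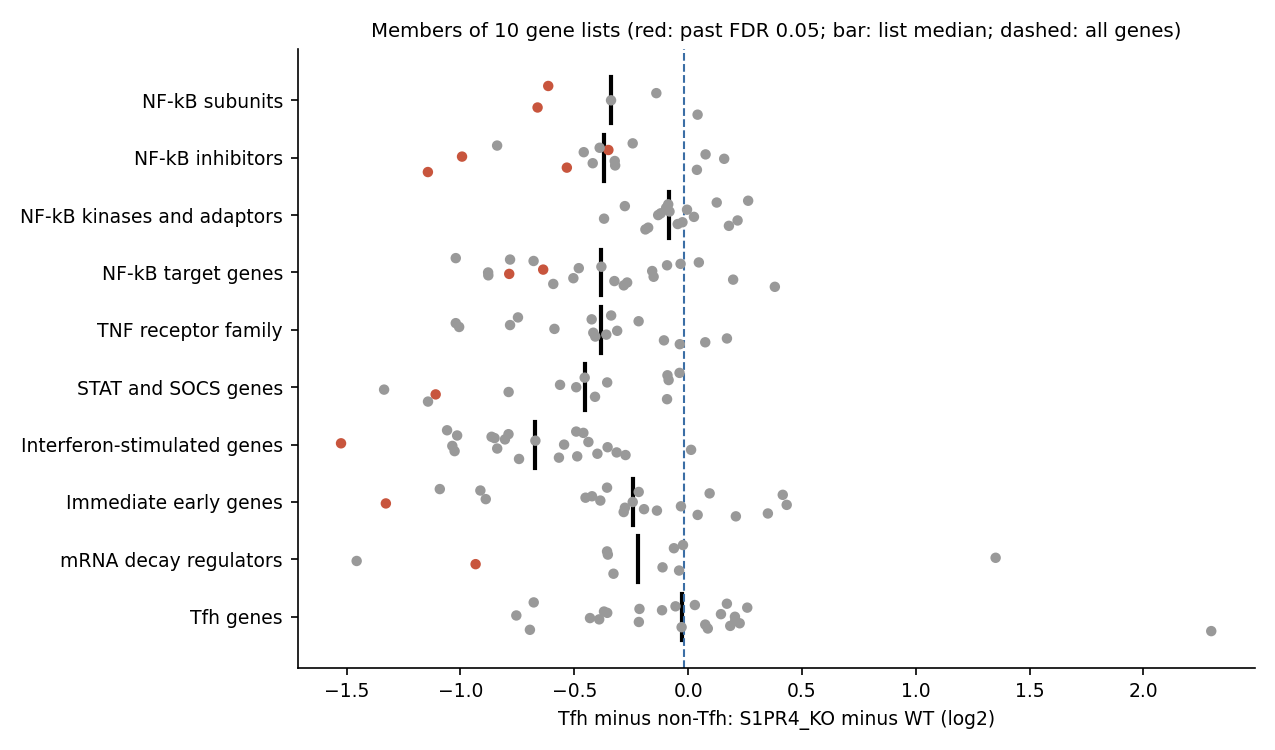
Difference between genotypes in the Tfh minus non-Tfh difference (x axis, log2) for the members of 10 gene lists (y axis), with genes past an adjusted p of 0.05 in red, list medians as black bars and the median of all genes, -0.02, as a dashed line. Interferon-stimulated genes and STAT and SOCS genes have medians of -0.67 and -0.45, and Tfh genes one of -0.03.

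The promoters of the genes with lower values were read for the sequence that NF-κB binds. RefSeq start sites on GRCm38.p6 were found for 28 of the 37 genes (31 of all 41). The windows reach from 250 bases before to 50 after a start, 300 bases in all. The κB consensus motif, searched on both strands with overlapping matches counted apart, was present in a window of 12 of these 28 genes, or 42.9%. It was present for 6.14% of the 10109 tested genes with a window and 5.14% of all 27025 genes. TTCNNNGAA, the STAT motif, was present for 6 of the 28 genes (21.4%) against 8.34% of the tested genes, and TTTCNNTTTC, an interferon motif, for 4 (14.3%) against 3.98%. A gene with several starts has several chances of a match, and a match is a description of the letters, not of a bound factor. The windows below show a pair of NF-κB inhibitor genes, a subunit, a target and a STAT inhibitor, from 5′ to 3′ on the strand of the gene, with κB matches, or interferon motif matches in Socs1, in capitals. Where an inverted repeat matches on both strands, or in shifted steps, the capitals run together.
Nfkb2, chr19:46304487-46304786, plus strand: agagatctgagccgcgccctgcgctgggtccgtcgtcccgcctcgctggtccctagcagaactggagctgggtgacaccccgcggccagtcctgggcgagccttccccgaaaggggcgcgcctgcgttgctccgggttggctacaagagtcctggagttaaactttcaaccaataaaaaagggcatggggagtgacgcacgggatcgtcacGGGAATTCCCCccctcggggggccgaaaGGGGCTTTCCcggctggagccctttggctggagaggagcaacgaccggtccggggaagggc
Nfkbia, chr12:55492598-55492897, minus strand: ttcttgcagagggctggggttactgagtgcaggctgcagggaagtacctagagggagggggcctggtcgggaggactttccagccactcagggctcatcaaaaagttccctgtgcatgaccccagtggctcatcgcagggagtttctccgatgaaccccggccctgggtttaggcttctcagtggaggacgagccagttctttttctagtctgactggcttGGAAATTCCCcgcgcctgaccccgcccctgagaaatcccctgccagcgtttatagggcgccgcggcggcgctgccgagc
Tnip1, chr11:54962891-54963190, minus strand: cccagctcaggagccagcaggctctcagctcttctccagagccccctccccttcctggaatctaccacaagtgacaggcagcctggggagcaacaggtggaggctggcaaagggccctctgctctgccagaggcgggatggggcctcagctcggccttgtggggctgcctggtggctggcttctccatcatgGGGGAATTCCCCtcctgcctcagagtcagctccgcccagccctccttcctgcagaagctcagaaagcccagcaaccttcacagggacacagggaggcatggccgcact
Irf1, chr11:53769764-53770063, plus strand: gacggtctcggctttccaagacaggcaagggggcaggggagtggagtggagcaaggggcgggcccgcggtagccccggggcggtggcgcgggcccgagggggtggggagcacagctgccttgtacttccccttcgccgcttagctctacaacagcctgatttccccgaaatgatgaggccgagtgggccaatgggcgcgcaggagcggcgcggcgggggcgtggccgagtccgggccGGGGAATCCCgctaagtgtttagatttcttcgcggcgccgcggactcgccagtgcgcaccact
Socs1, chr16:10785487-10785786, minus strand: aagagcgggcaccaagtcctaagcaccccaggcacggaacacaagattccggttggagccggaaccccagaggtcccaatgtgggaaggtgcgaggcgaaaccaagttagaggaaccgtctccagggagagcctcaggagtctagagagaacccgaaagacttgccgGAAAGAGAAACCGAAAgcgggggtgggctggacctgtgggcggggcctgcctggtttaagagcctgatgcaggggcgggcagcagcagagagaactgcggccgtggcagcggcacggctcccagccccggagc

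The first κB match started 39 bases before the start in the Nfkb2 window shown, 29 before it in Nfkbia, 58 before it in Tnip1 and 13 before it in Irf1. In the Nfkb2 and Tnip1 windows there were 3 matches each, in part overlapping. The other genes with a κB match in a window were Bcl3, Epsti1, Fosl2, Gbp5, Il4ra, Ramp3, Sdc4 and Tmem184b. Relb, Nfkbiz and Parp14 were among the genes without a window, so their promoters were not read. The Icam1 window held no κB match, although Icam1 was counted as an NF-κB target. All windows shown for κB hold a match. Socs1 had 2 overlapping matches of the interferon motif and none of κB.

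Genes of the interferon response and of ADP-ribosylation followed. The smallest p of all belonged to Parp14 (ENSMUSG00000034422.14, chr16:35832874-35871544, minus strand), an ADP-ribosyltransferase that acts as a cofactor of STAT6. It ran from 69.8 to 155 (median 88.9) CPM in WT Tfh and from 51.1 to 106 (median 71.4) in WT non-Tfh samples, and from 76.2 to 115 (median 83.7) and from 82.9 to 169 (median 104) in the same populations of S1PR4-/- mice. It was higher in Tfh cells in every WT pair and lower in every S1PR4-/- pair, while the groups themselves overlapped, since levels varied between pairs. Paired, the genotypes differed by -0.81 (SE 0.10, adjusted p = 0.011), whereas the effects were -0.25 (adjusted p = 0.574) in Tfh and 0.61 (adjusted p = 0.186) in non-Tfh cells. Without the block its adjusted p was 0.337, in a range from 7.7e-10 to 0.634 over all alternatives tried for this gene. Parp9 and Dtx3l, the partners of a ubiquitin ligase complex in interferon responses, lie beside Parp14 on chromosome 16 and overlap each other there, so their reads may not be fully separate. Dtx3l was at -0.53 (SE 0.08, adjusted p = 0.0251) and Parp9 at -0.54 (SE 0.10, adjusted p = 0.0309).

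Of 23 interferon-stimulated genes, only Mx1 passed, and 22 had a negative value, with a median of -0.67. In edgeR, 13 were lower and 0 higher at an unadjusted p under 0.05. Among all 14401 genes tested, 53.5% of values were negative, with 1015 genes lower and 639 higher at that p. Mx1 (ENSMUSG00000000386.15, chr16:97447035-97462907, minus strand), a gene of the MX GTPase family, ran from 8.38 to 27.5 (median 11.2) CPM in WT Tfh and from 1.37 to 3.61 (median 1.88) in WT non-Tfh samples. In S1PR4-/- mice it ran from 3.57 to 17.5 (median 8.03) and from 1.46 to 8.33 (median 2.77). It was higher in Tfh cells in all 12 pairs, but the differences in S1PR4-/- pairs, from 0.77 to 1.99 (median 1.12), all lay below those in WT pairs, from 2.33 to 3.63 (median 2.62). The paired difference was -1.52 (SE 0.25, adjusted p = 0.0263). Members that fell short were Oas3 at -0.85 (adjusted p = 0.102), Bst2 at -0.74 (adjusted p = 0.121) and Isg15 at -1.04 (adjusted p = 0.183). The list's summed behavior varied between pairs: the mean difference over its genes ran from -0.19 to 1.16 in WT pairs and from -1.0 to 0.49 in S1PR4-/- pairs, which overlap.

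Outside the list, Gbp5, a guanylate-binding protein induced by interferon γ, was at -1.05 (SE 0.18, adjusted p = 0.0299), and its pairs did not overlap. Ly6a, a surface antigen of activated T cells, was at 1060.2 ± 180.0 CPM in WT Tfh and 274 ± 43.6 in WT non-Tfh cells, against 838 ± 233 and 362 ± 125 in S1PR4-/- mice. Its excess in Tfh cells was smaller in all 6 S1PR4-/- pairs than in any WT pair, with a difference of -0.71 (SE 0.11, adjusted p = 0.0251). Epsti1 and H2-T23, which encodes a nonclassical MHC molecule, passed at -0.41 (edgeR adjusted p = 0.0414) and -0.36 (edgeR adjusted p = 0.0459) and were named after their values had been seen.

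Genes of cytokine receptors were among the calls too. Il21r and Il4ra are neighbors on chromosome 7, 24 kb apart, and encode the receptors' specific chains for IL-21, the cytokine that Tfh cells make, and for IL-4. Il21r ran from 337 to 456 (median 392) CPM in WT Tfh and from 238 to 435 (median 329) in S1PR4-/- Tfh samples, and from 453 to 664 (median 482) and from 497 to 936 (median 614) in non-Tfh samples. The genotypes overlapped within each population, but all S1PR4-/- pair differences were below all WT ones, and the paired difference was -0.58 (SE 0.10, adjusted p = 0.0263). Il4ra was several times higher in non-Tfh than in Tfh cells in both genotypes, at 616 ± 59.1 against 102 ± 8.74 CPM in WT mice and 682 ± 84.3 against 78.8 ± 10.9 in S1PR4-/- mice. Its paired difference was -0.52 (SE 0.10, adjusted p = 0.0414), with a lower level in Tfh cells at -0.37 (adjusted p = 0.0336).

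All 13 STAT and SOCS genes had negative values, with a median of -0.45, 8 of them at an unadjusted p under 0.05, and 1 passed. Negative values made up 53.5% of all 14401 genes tested, 1015 of which were lower at that p. Socs1 (ENSMUSG00000038037.5, chr16:10782240-10785536, minus strand), a feedback inhibitor of JAK kinases, was at 134 ± 20.9 CPM in WT Tfh and 50.4 ± 19.9 in WT non-Tfh cells, and at 111 ± 49.2 and 81.8 ± 24.6 in S1PR4-/- mice. Its excess in Tfh cells was smaller in S1PR4-/- mice, by -1.11 (SE 0.21, adjusted p = 0.0414), though the pairs overlapped and neither single effect passed. Just short of the threshold were Stat5a at -0.45 (adjusted p = 0.0539), which transmits signals of several cytokines, and Socs3 at -1.34 (adjusted p = 0.067). Cish was at -1.14 (adjusted p = 0.282).

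Adhesion and surface molecules formed a further set, grouped after the values were seen. Itgb7, the integrin β7 chain used in homing to the gut, was lower in Tfh than in non-Tfh cells in every pair. It ran from 946 to 1222 (median 1172) CPM in WT Tfh and from 684 to 949 (median 838) in S1PR4-/- Tfh samples. These ranges touch only at their ends, while the non-Tfh samples overlapped widely, from 1448 to 1727 (median 1483) and from 1391 to 1709 (median 1630.2). Between genotypes the pairs differed by -0.50 (SE 0.07, adjusted p = 0.0251), with -0.44 (adjusted p = 0.0062) in Tfh cells against 0.06 (adjusted p = 0.857) in non-Tfh cells. Sdc4, the proteoglycan syndecan, was at 5.54 ± 1.00 CPM in WT and 2.53 ± 1.06 in S1PR4-/- Tfh cells, with a paired difference of -1.61 (SE 0.27, adjusted p = 0.0263). Sema4d, a semaphorin by which T cells signal to B cells, was at -0.56 (SE 0.10, adjusted p = 0.0275). Treml2, a receptor of the TREM family, was at -1.0 (SE 0.16, adjusted p = 0.0251), and Gpr146, an orphan receptor, at -0.84 (SE 0.15, adjusted p = 0.0309).

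Other called genes encode a transcription factor subunit, a MYC antagonist and a signaling scaffold, placed together after the values were seen. Fosl2, an AP-1 subunit, was the 1 of 21 immediate early genes that passed, in a list with a median of -0.24. Of all genes tested, 0.285% passed, and the median was -0.02. It ran from 2.83 to 5.68 (median 4.40) CPM in WT Tfh and from 1.51 to 3.23 (median 2.30) in S1PR4-/- Tfh samples, and from 3.86 to 5.82 (median 4.36) and from 4.56 to 7.73 (median 5.99) in non-Tfh samples. Its pair differences lay around equal levels in WT mice, from -0.44 to 0.49 (median 0.003), and below them in every S1PR4-/- pair, from -1.57 to -0.98 (median -1.38). Paired, the genotypes differed by -1.33 (SE 0.21, adjusted p = 0.0251), with -0.96 (adjusted p = 0.0103) in Tfh cells. Ier5 at -0.39 (adjusted p = 0.0914) and Junb at -0.45 (adjusted p = 0.221) did not pass, and Fos and Egr1 were at -0.03 and -0.14. Mxd1, an antagonist of MYC, was at -1.02 (SE 0.18, adjusted p = 0.0275), and Ksr1, a scaffold of the ERK cascade, at -1.30 (SE 0.24, adjusted p = 0.0402).

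Zc3h12a, which encodes the RNase Regnase that degrades cytokine transcripts, was the 1 of 10 mRNA decay regulators that passed, in a list with a median of -0.22. The share that passed among all genes tested was 0.285%, with a median of -0.02. It was at 14.8 ± 2.78 CPM in WT and 9.72 ± 1.44 in S1PR4-/- Tfh cells, and at 10.7 ± 1.67 and 13.5 ± 1.88 in non-Tfh cells. The paired difference was -0.93 (SE 0.18, adjusted p = 0.0436). Mfhas1 was at -0.68 (SE 0.11, adjusted p = 0.0263), with a lower level in Tfh cells at -0.48 (adjusted p = 0.00615). Pkp4, of the plakophilin family, and Tmem184b were at -0.69 (edgeR adjusted p = 0.0251) and -0.43 (edgeR adjusted p = 0.0275). Rragd, a GTPase of the mTORC1 pathway, Ramp3, Rundc3b and Prag1 passed with values between -0.99 and -0.74 and are named after their values were seen.

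The largest values among the 41 belonged to a pair of genes near S1pr4 on chromosome 10 (mm10, chr10:81497747-81500132). Ckap4 (ENSMUSG00000046841.5, chr10:84526305-84534062, minus strand), a membrane protein of the endoplasmic reticulum, lies 3.03 Mb from S1pr4, and Chst11 (ENSMUSG00000034612.7, chr10:82985498-83195900, plus strand), a sulfotransferase of chondroitin, 1.49 Mb. Ckap4 ran from 3.81 to 17.4 (median 7.17) CPM in WT Tfh and from 0.632 to 2.38 (median 1.23) in S1PR4-/- Tfh samples, which do not overlap, and from 0.537 to 1.45 (median 1.38) and from 0.791 to 1.77 (median 1.23) in non-Tfh samples, which do. Between genotypes the pairs differed by -2.84 (SE 0.48, adjusted p = 0.0275). Plasma cell markers, given above, were likewise highest in WT Tfh samples. With B cell and plasma cell marker scores as covariates, Ckap4 kept its sign but did not pass, as was so for all of the 41. Its value ran from -3.13 to -2.32 over all alternatives tried. A fit with the plasma cell score alone was not run, so the part of plasma cell RNA by itself was not tested. Chst11, named after its values were seen, was at most 1.25 CPM in any sample and without a count in some of the 6 WT non-Tfh samples, so that its fitted value, -5.17 (SE 0.96, adjusted p = 0.0414), rests on few counts and depends on the prior count. The deleted gene and the chromosome segment inherited with it cannot be told apart for genes at such distances. Of 8 genes chosen to flank S1pr4, 0 passed the paired test in edgeR, with 2 lower at an unadjusted p under 0.05. Their paired differences ran from -1.71 in Tdg-ps to 0.37 in 1190007I07Rik. The list of 8 was written with earlier results of these data known, so its counts describe the genes chosen, not the segment. Over all genes tested, 2.06% passed between genotypes in Tfh cells and 0.479% in non-Tfh cells. Compared in this way, all 8 passed in Tfh cells, 5 lower and 3 higher, and 7 passed in non-Tfh cells, 4 lower and 3 higher. The exception was Gna15, a G protein subunit, at -1.68 (adjusted p = 0.00473) in Tfh and -0.83 (adjusted p = 0.249) in non-Tfh cells. Tdg, a DNA repair glycosylase, was at -1.46 (adjusted p = 5.88e-13) in Tfh and -1.46 (adjusted p = 7.19e-13) in non-Tfh cells, with a paired difference of 0.002. Tdg-ps, by its name a pseudogene of Tdg with which it may share reads, averaged 0.0539 CPM in WT Tfh and 0.00466 in WT non-Tfh samples against 13.0 and 5.90 in S1PR4-/- mice, so that its paired difference rests on few WT counts.

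In the opposite direction, Rad18, a ubiquitin ligase of DNA damage tolerance, had the smallest p. It ran from 59.3 to 79.9 (median 72.5) CPM in WT Tfh and from 75.2 to 98.6 (median 86.9) in S1PR4-/- Tfh samples, and from 58.6 to 74.1 (median 69.6) and from 53.2 to 66.5 (median 62.7) in non-Tfh samples. The populations were level in WT mice and apart in all 6 S1PR4-/- pairs, by from 0.34 to 0.63 (median 0.52), giving a paired difference of 0.43 (SE 0.07, adjusted p = 0.0251). Zmym1 was at 0.59 (SE 0.09, adjusted p = 0.0251) and Prmt3, an arginine methyltransferase that acts on a ribosomal protein, at 0.48 (SE 0.09, adjusted p = 0.0309). Prmt3 was the only one of the 4 to pass in Tfh cells alone, at 0.36 (adjusted p = 0.0193). Arrdc3, an α-arrestin that adapts receptors for degradation, was at 0.75 (SE 0.14, adjusted p = 0.0459) and was named after its values were seen.

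Genes that define Tfh cells gave little. Of 23, 0 passed in edgeR, 1 was lower and 0 higher at an unadjusted p under 0.05, and the median was -0.03. Bcl6 was at 0.09, Cxcr5 at -0.22 and Pdcd1 at -0.37, with adjusted p-values of 0.941, 0.834 and 0.779 in edgeR. Batf, an AP-1 partner needed for Tfh development, came nearest at -0.69 (adjusted p = 0.0691), and its pairs did not overlap. The 11 tested genes for receptors and enzymes of sphingosine-1-phosphate gave 0 calls in edgeR, with 3 lower and 0 higher at an unadjusted p under 0.05. Other lists without a call in edgeR had medians of 0.09 for 24 cell cycle genes (2 higher and 0 lower at an unadjusted p under 0.05), -0.40 for 18 Th1 and effector genes (5 lower), -0.30 for 13 naive and egress genes (6 lower) and -0.16 for 84 ribosomal protein genes (17 lower). They were -0.21 for 21 T cell receptor feedback genes (6 lower, 1 higher), -0.39 for 13 regulatory T cell genes (3 lower), -0.05 for 12 heat shock genes (1 lower, 1 higher), -0.02 for 20 MYC and ribosome biogenesis genes (1 lower), -0.05 for 21 glycolysis and hypoxia genes (1 lower), -0.17 for 19 cholesterol synthesis genes (6 lower) and -0.55 for 13 mitochondrial transcripts (7 lower). Values were negative in 80 of the 84 ribosomal protein genes, 18 of the 19 cholesterol synthesis genes and all 13 mitochondrial transcripts. They were negative in 9 of the 24 cell cycle genes, 12 of the 23 Tfh genes and 53.5% of all genes tested. A lean to negative values was thus not particular to the NF-κB, STAT and interferon lists.

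Markers of other cells moved with genotype and pair. The mean log2 CPM of 12 B cell markers was higher in Tfh than in non-Tfh samples by 4.63 to 4.93 in WT pairs 1, 2 and 3 and by 4.83 in S1PR4-/- pair 3, and by -0.27 to 1.70 in the other 8 pairs. For plasma cell markers this difference ran from 3.01 to 3.91 in WT pairs and from -0.49 to 3.63 in S1PR4-/- pairs. Summed over the 12 B cell markers, levels ran from 184 to 508 CPM in WT Tfh, 165 to 302 in S1PR4-/- Tfh, 65.9 to 108 in WT non-Tfh and 60.6 to 73.4 in S1PR4-/- non-Tfh samples, and 0 of the 12 were at 0 in every WT Tfh sample, against up to 2 in a S1PR4-/- Tfh sample. Summed plasma cell markers ran from 1204 to 2955 CPM in WT Tfh, 758 to 1102 in S1PR4-/- Tfh, 1124 to 1552 in WT non-Tfh and 914 to 1262 in S1PR4-/- non-Tfh samples. Adjusted for the B cell score, edgeR called 48 genes, 35 of them among the 41. With the scores of both lists it called 0, with 1833 genes at an unadjusted p under 0.05, and the 41 genes kept their signs with a median size 1.01 times that reported, the lowest adjusted p among them being 0.091. Without the 4 pairs highest in B cell markers, a choice made after seeing the data, edgeR called 0 genes from the 8 pairs left, with 1491 at an unadjusted p under 0.05, and the median value of the 37 genes was -0.76 against -0.79 over all pairs. With a term that let the Tfh minus non-Tfh difference vary with sex, edgeR called 29 genes, of which 16 were among the 41.

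**Figure D5:**
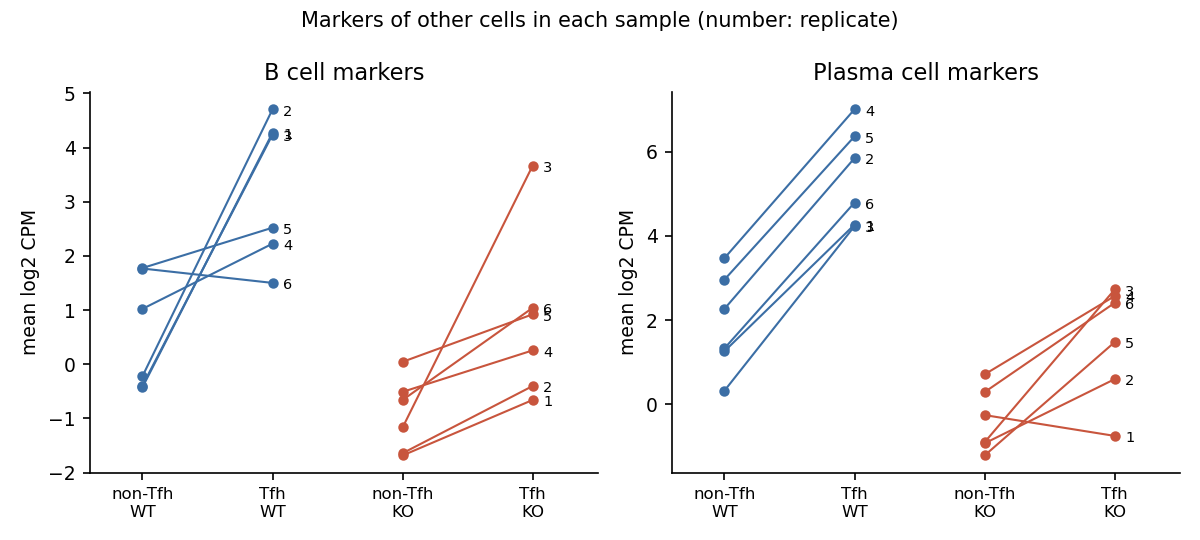
Mean log2 CPM (y axis) of B cell markers (left) and plasma cell markers (right) in each sample, with lines joining Tfh and non-Tfh samples of equal number, numbered at the Tfh end, in WT (blue) and S1PR4-/- mice (red, KO). WT Tfh samples 1, 2 and 3 and S1PR4-/- Tfh sample 3 rise most in B cell markers, and WT Tfh samples lie above S1PR4-/- Tfh samples in plasma cell markers.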

How the data were processed

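RNA of 24 sorted Tfh and non-Tfh samples was read from the table of the series, 6 samples in each of 4 groups. Per the labels and the study's methods, libraries came from oligo-dT-selected RNA with a stranded kit, reads were trimmed with Cutadapt 2.10, aligned to mm10 with STAR 2.5.3 and marked for duplicates with Picard. Values are expected counts from RSEM 1.3.0 for 55450 genes, deposited by the authors, not scaled for depth or length, and 8.95% of the values used were not whole. The counting strand is not given in the sources used here. The methods name GENCODE M30, but the gene set matches M21, from which coordinates are given on mm10.

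After rounding, filterByExpr in edgeR 4.0.16 (under R 4.3.3) kept 14401 genes, and TMM factors were computed. The paired model held 12 pair levels and a Tfh against non-Tfh term in each genotype, leaving 10 residual degrees of freedom, and the quasi-likelihood test compared these terms. Genotypes within a population were compared in a fit of 4 group means. Adjusted p-values follow Benjamini and Hochberg over all genes tested. Standard errors were derived from the F statistic. Pair differences and gene list scores were taken on log2 CPM (prior count 2), and pair differences of single genes were permuted between genotypes (exact test, two-sided). This depth allowed genes under 1 CPM to be tested. Alternatives with DESeq2 1.42.0, limma 3.58.1, other normalizations, filters, covariates and sample sets were run, and the tests were tested on simulated data. The study used DESeq2 between pairs of groups.

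The comparison, the 31 gene lists and the tests were chosen with earlier results of these data known. Genes named were the first 30 called by unadjusted p with a group mean of at least 1 CPM, S1pr4 and 8 genes flanking it, and in each list the called members, otherwise up to 4 with the lowest p. Uncalled members of lists that held a called gene, such as Rel, Tnfaip3, Tnf, Oas3, Socs3 and Fos, were named outside this rule. Bcl6, Cxcr5 and Pdcd1 were named whatever their p. The methods give 6 mice of each genotype, which matches the 6 samples of a group, but no source used here ties a sample number to a mouse, so p-values measure the spread between these samples. B cell samples, sorted on another day, were not used here.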

Additional observations from a re-analysis of the deposited data

Results flagged for a closer look

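The knockout effect differed between Tfh and non-Tfh cells, by the paired edgeR test, in 41 genes. In log2 of S1PR4-/- over WT, the Tfh minus non-Tfh difference had the following values in the 37 lower genes, from the smallest p. Parp14 was at -0.81, Dtx3l at -0.53, Ly6a at -0.71, Itgb7 at -0.50, Irf1 at -0.64, Relb at -0.61, Fosl2 at -1.33, Treml2 at -1.0, Pkp4 at -0.69, Nfkbiz at -0.99, Il21r at -0.58, Mfhas1 at -0.68 and Icam1 at -0.79. They were followed by Mx1 at -1.52, Sdc4 at -1.61, Tnip1 at -0.35, Ckap4 at -2.84, Tmem184b at -0.43, Sema4d at -0.56, Mxd1 at -1.02, Bcl3 at -1.14, Gbp5 at -1.05, Nfkb2 at -0.66, Parp9 at -0.54, Gpr146 at -0.84 and Ksr1 at -1.30. The remaining genes were Il4ra at -0.52, Epsti1 at -0.41, Chst11 at -5.17, Socs1 at -1.11, Zc3h12a at -0.93, Rragd at -0.98, Ramp3 at -0.99, H2-T23 at -0.36, Rundc3b at -0.74, Nfkbia at -0.53 and Prag1 at -0.97. The 4 higher genes were Rad18 at 0.43, Zmym1 at 0.59, Prmt3 at 0.48 and Arrdc3 at 0.75. Among these called genes, Epsti1, Chst11, Rragd, Ramp3, Arrdc3, H2-T23, Rundc3b and Prag1 are not covered by the naming rule and were added once their values were seen.

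Within the 6 pairs of a genotype, 1 Tfh minus non-Tfh difference (log2 CPM, or mean log2 CPM of a marker list) lay far from the others in 8 of 96 sets tested, where chance gives about 1 in 20. For Irf1, the difference was -1.09 in WT pair 6, against -0.84 to -0.74 in the other 5. For Pkp4, the difference was 0.79 in S1PR4-/- pair 6, against 1.24 to 1.48 in the other 5. For Icam1, the difference was -0.95 in S1PR4-/- pair 1, against -0.36 to -0.19 in the other 5. For Mx1, the difference was 3.63 in WT pair 3, against 2.33 to 2.76 in the other 5. For Nfkbia, the difference was 0.32 in WT pair 3, against -0.18 to -0.03 in the other 5. For Nfkbia, the difference was -0.16 in S1PR4-/- pair 2, against -0.72 to -0.54 in the other 5. For B cell markers, the difference was 4.83 in S1PR4-/- pair 3, against 0.77 to 1.70 in the other 5. For myeloid and dendritic markers, the difference was 3.47 in WT pair 4, against 1.75 to 2.22 in the other 5.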

How the results depend on the processing

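All counts here are of genes past an adjusted p of 0.05, and the cause of a change in count was not tested. The paired comparison called 41 genes with the pair block. It called 2 with no replicate block, and 10 with the replicate number shared by the genotypes as the replicate block. Same-numbered Tfh and non-Tfh samples deviated together with correlations from 0.05 to 0.25, over 0.1 in 8 of 12 pairs, 9 of 12 correlated best with their own number, and sex matched in 12 of 12, a hint from the data and not from the design. DESeq2 called 331 genes (40 of the 41), limma-voom 65 and limma on the pair differences 50 (41 of the 41 each). Other normalizations and filters gave 36 to 54. With B cell and plasma cell marker scores as covariates edgeR called 0, and 1833 at an unadjusted p under 0.05. Leaving out 1 pair gave 0 to 47 calls: 0 without WT pair 3, 1 without WT pair 2 or 4, 8 without WT pair 5, 3, 16, 7 and 26 without S1PR4-/- pairs 3, 5, 6 and 4. In sets chosen after seeing the data, edgeR called 0 from numbers 1 to 3 alone, from numbers 4 to 6 alone, from female pairs alone, from male pairs alone and without the 4 pairs highest in B cell markers, with 1392, 1873, 1607, 867 and 1491 genes at an unadjusted p under 0.05, all from fewer pairs. Of 1229 values of single called genes under the alternatives, 543 kept their side of the threshold, 686 lost it and 0 changed sign.

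Genotypes compared within Tfh cells gave 296 genes and within non-Tfh cells 69. Each population fitted alone gave 190 and 31, DESeq2 634 and 285, and the B cell score as covariate 59 and 25. Without a low-count filter they were 245 and 45. Leaving out 1 sample gave 138 to 391 in Tfh and 30 to 107 in non-Tfh cells. In Tfh cells the count fell to 191, 153, 138 and 151 without WT samples 1, 2, 3 and 5 and to 188, 174, 165 and 191 without S1PR4-/- samples 1, 4, 5 and 6. In non-Tfh cells it was 34, 30 and 107 without WT samples 2, 4 and 6 and 37, 43, 45 and 34 without S1PR4-/- samples 1, 2, 5 and 6. The replicate number as a block changed these counts to 383 and 103, within 1.5 times.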
